A study of Mus musculus with 30 samples.

Results

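The cytosolic ribosomal protein genes were taken as protein-coding genes whose symbol is Rpl or Rps with a number and at most a short paralogue suffix, together with Rpsa, Rplp0, Rplp1 and Rplp2. Ribosomal S6 kinases and pseudogenes were left out. The rule found 82 genes among 33076 in the count table: 31 of the small subunit, 43 of the large subunit, the 3 stalk genes and 5 paralogues that stand beside a core gene (Rpl3l, Rpl7l1, Rpl22l1, Rpl39l and Rps27l). A further 5 symbols matched but were annotated as non-coding and were dropped. The paralogue Rpl10l was not analysed here.

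Bulk RNA-seq had been carried out on the diaphragm of 15 male mice, with a perisynaptic and an extrasynaptic piece from each animal, the perisynaptic one being the piece that holds the neuromuscular junctions. SBMA mice carried the transgene written BACfxAR121 in the study's design and BACfxR121 in the sample labels, a bacterial artificial chromosome with a floxed, polyglutamine-expanded human androgen receptor, which models spinal and bulbar muscular atrophy (SBMA). Control littermates carried the same transgene plus HSA-Cre, a recombinase under the human skeletal actin promoter that removes it in skeletal muscle fibres. Controls were therefore muscle-rescued transgenic mice and not wild type, and cells other than muscle fibres kept the transgene in both genotypes. The 8 groups were SBMA and control, perisynaptic and extrasynaptic, at 15 and at 26 weeks, with 4 animals in each group except for 3 controls at 15 weeks. Total counts ran from 16280873 to 34694446 per library. The labelled tissue matched its markers: the 12 muscle fibre markers together had a summed level of 64210 to 161764 CPM (counts scaled to library size), and none of them was at 0 in a library.

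The small subunit reads the mRNA and the large subunit joins the amino acids, and a ribosome needs nearly all its core proteins in equal numbers. Many ribosomal protein mRNAs start with a run of pyrimidines led by a C, the 5′ terminal oligopyrimidine (TOP) tract, through which the mTORC1 kinase controls their translation. Rpl3l is the striated muscle form of the large subunit protein uL3 and takes the place of Rpl3 in adult muscle fibres, whereas Rpl3 serves other cells and growing muscle.

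The 30 bases around the annotated start, 15 before and 15 from it, are printed for windows with and without a tract there. In the Rpl4 window a run of pyrimidines ends just before the annotated start, so Rpl4 is not shown to lack a TOP tract. Capitals mark a C-led pyrimidine tract of at least 5 bases that begins at the start site. The windows come from RefSeq on GRCm38.p6, for Rplp2 (chr7:141447636-141447665, plus strand), Rpl15 (chr14:18270972-18271001, minus strand), Rps18 (chr17:33955651-33955680, minus strand), Rpl4 (chr9:64173372-64173401, plus strand) and the first of the annotated starts of Rpl3l (chr17:24727811-24727840, plus strand).
Rplp2: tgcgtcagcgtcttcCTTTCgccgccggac
Rpl15: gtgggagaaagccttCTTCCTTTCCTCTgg
Rps18: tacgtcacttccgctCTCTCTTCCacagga
Rpl4: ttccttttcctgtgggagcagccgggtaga
Rpl3l: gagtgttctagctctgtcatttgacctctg

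Start windows were found for 62 of the 82 genes, 74 windows in all. The tract at the start stood in 13 of the 74 (17.6%), against 2.51% of all 32851 promoters in the same table. In the 300 bases from 250 before the start to 50 after it, the letters CGGAAG stood on either strand in 60.8% of the family's windows and 16.9% of all promoters, and ATGGCG in 31.1% and 8.93%. CACGTG was in 10.8% of the family's windows and 7.15% of all, and TATAAA in 9.46% and 13.6%. Neither Rpl3l window held the tract or any of these motifs. An annotated start may lie some bases from the start in use, so these are counts of letters and not of TOP mRNAs.

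Levels spanned a wide range within the family. On a per-length scale (RPKM, which is CPM per kilobase of exon, as the mean over 30 libraries), Rplp1, an acidic stalk protein, was highest at 502, followed by Rpl3l at 290 and Rps15 of the small subunit head at 262. The lowest were Rps16 at 0.194, Rpl24 at 0.152 and the paralogue Rpl39l at 0.0388. Rpl3, the core counterpart of Rpl3l, had 2.08 RPKM. When the length of the main transcript was used instead of all exons, Rplp1 stayed first and Rpl3l ranked 4.

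**Figure D1:**
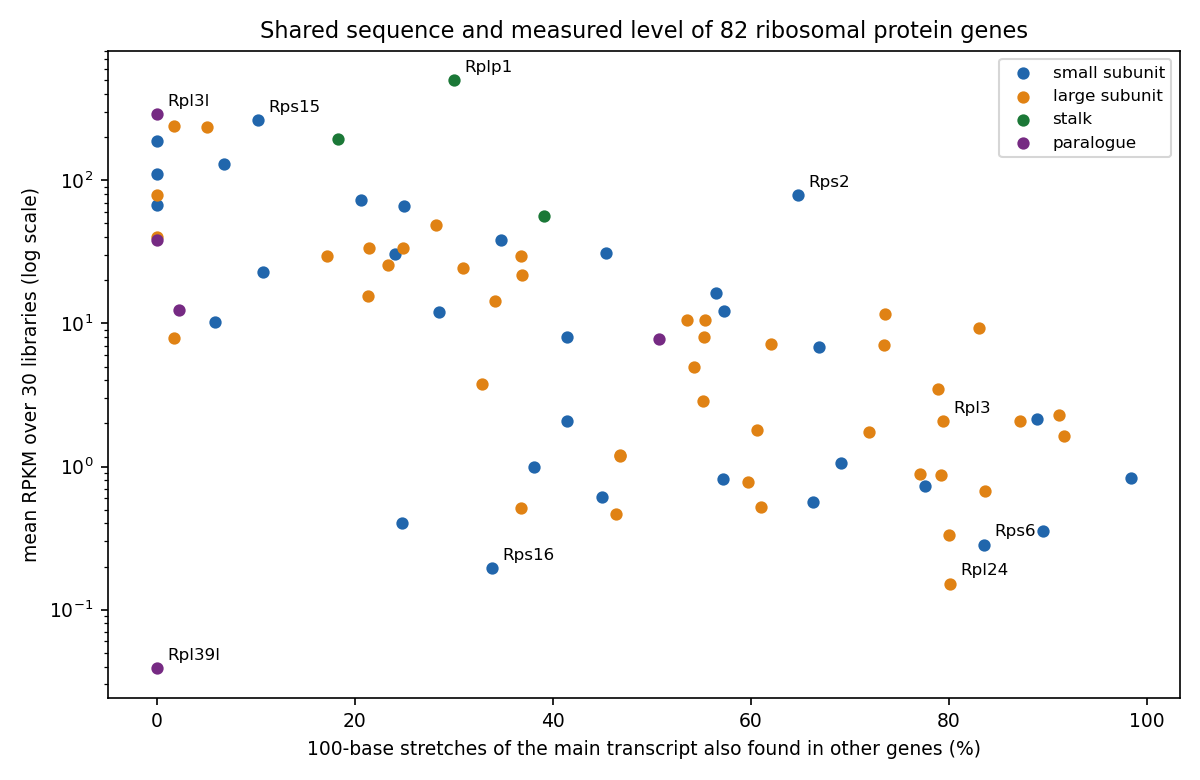
Mean level of each of the 82 genes (RPKM, log axis, mean over 30 libraries) against the percent of 100-base stretches in its main transcript that also occur in transcripts of other genes. Genes with less shared sequence sit higher, with Rpl3l at 0% and 290 RPKM and Rpl3 at 79.4% and 2.08 RPKM.

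These levels moved with how much of each transcript has a copy elsewhere, as the plot of level against shared sequence shows. The table also lists 220 named ribosomal protein pseudogenes, and 60 of the 82 genes have at least 1. The 25 genes with under 25% of their 100-base stretches shared held 69.4% of the family's counts, with a median total of 56622. The 26 genes with 60% or more shared held 5.37%, with a median total of 2114. Across the 82 genes, shared percent and log10 RPKM had a Spearman rho of -0.64 and a Pearson r of -0.61. How reads with several matches were counted is not given in the sources used here, so a low value of a highly shared gene such as Rpl3, Rps16 or Rpl24 may not be its transcript level, and its changes are uncertain. Rpl3l shared no 100-base stretch with another annotated transcript, and neither did it share a 50-base one.

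**Figure D2:**
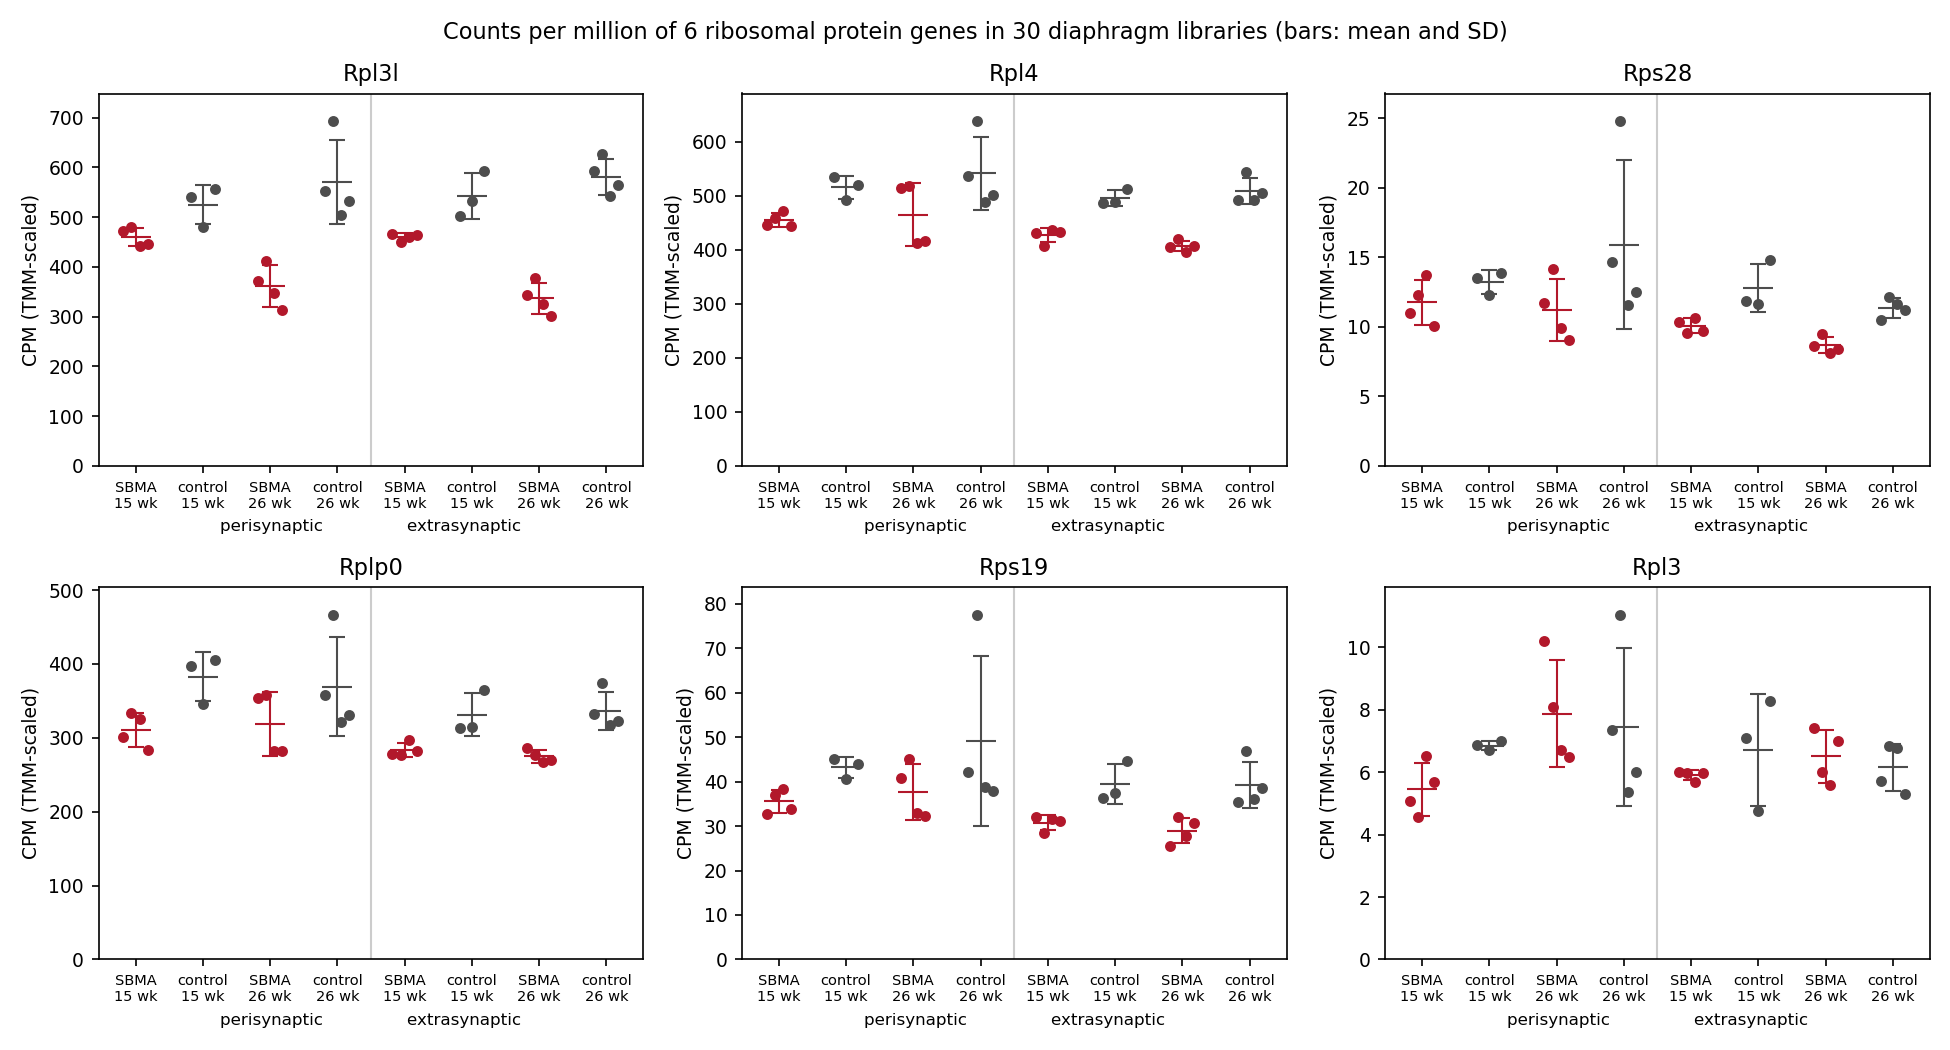
Level of 6 ribosomal protein genes in each library (CPM on TMM-scaled library sizes), by group, with SBMA left of control at each age and region. Points are libraries and bars are group means with SD. In the extrasynaptic piece at 26 weeks the 4 SBMA libraries of Rpl3l sit at 302 to 377 CPM, all below the 4 controls at 542 to 626 CPM.

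The difference between genotypes was widest in the extrasynaptic piece at 26 weeks, where 33 of the 77 ribosomal protein genes tested fell in SBMA and none rose. That is 42.9% of them, in a comparison that called 32.2% of 15526 genes in all and 16.1% as lower in SBMA. The median log2 difference, SBMA minus control, was -0.22 over the family (interquartile range -0.31 to -0.10) and -0.03 over all genes tested, and 69 of the 77 were negative. In 32 of the 77 every SBMA library was below every control library, against 14.6% of all genes, and in 1 every SBMA library was above. The fall was relative to the rest of the transcriptome under TMM scaling: with total counts as the only scaling, the family's median was -0.01 while that of all genes was 0.18, and 2 of the 77 passed, Rpl3l as lower and Rpl5 as higher. In bulk tissue, fewer cells of a type and less RNA per cell cannot be told apart.

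Of the small subunit, 11 of 30 tested genes fell, with a median log2 difference of -0.21. Rps19, whose human counterpart is mutated in Diamond-Blackfan anaemia, had 25.55, 31.97, 27.78 and 30.62 CPM in SBMA, against 35.48, 46.79, 36.11 and 38.66 CPM in controls. The groups did not overlap, with a log2 difference of -0.44 (edgeR quasi-likelihood test, Benjamini-Hochberg adjusted p = 0.00378). Rps28 averaged 8.67 ± 0.575 CPM in SBMA and 11.4 ± 0.701 CPM in controls (SD, n = 4 each), a log2 difference of -0.39 (edgeR adjusted p = 0.00517). Smaller falls were called for Rps4x, the X-linked form of eS4 (log2 difference -0.22, edgeR adjusted p = 0.0132), and Rps3 (-0.17, 0.0363), which sits at the mRNA entry. Among those that did not pass were Rpsa, also known as a laminin receptor (log2 difference -0.37, edgeR adjusted p = 0.0816), Rps6, the target of the S6 kinases (-0.10, 0.871), Rps27 (-0.29, 0.385), and Rps27a, which is made as a fusion with ubiquitin (-0.15, 0.673). Rps6, Rps27 and Rps27a averaged only 0.451, 0.862 and 2.08 CPM over 30 libraries. They had 83.6%, 98.4% and 69.1% of their 100-base stretches shared, so they are not shown to be unchanged.

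Of the large subunit, 18 of 40 tested genes fell, with a median log2 difference of -0.26. Rpl4 had 406.2, 420, 396.3 and 407.9 CPM in SBMA, against 492.8, 545, 492.2 and 505.7 CPM in controls. Its groups stood well apart, with a log2 difference of -0.32 (SE 0.06, edgeR adjusted p = 0.000491). Among genes above 2 CPM on average, the largest falls after that of Rpl3l were in Rpl36, Rpl10 and Rpl12, all of low count and with more scatter. Rpl36 had 2.384, 2.712, 1.759 and 2.304 CPM in SBMA, against 3.62, 4.39, 3.864 and 2.672 CPM in controls. Its lowest control lay within the SBMA range, at a log2 difference of -0.66 (edgeR adjusted p = 0.0188). Rpl10, a late-joining protein near the catalytic centre, averaged 2.97 ± 0.205 CPM in SBMA and 4.35 ± 0.773 CPM in controls (SD, n = 4 each), a log2 difference of -0.55 (edgeR adjusted p = 0.0186). Rpl15 averaged 15.7 ± 1.18 CPM in SBMA and 20.6 ± 1.46 CPM in controls (SD, n = 4 each), with no overlap and a log2 difference of -0.39 (edgeR adjusted p = 0.00146). Rpl5, which binds the 5S RNA, went the other way, with 9.367, 10.75, 10.06 and 9.048 CPM in SBMA, against 9.002, 8.553, 7.590 and 8.082 CPM in controls. It was the 1 gene whose SBMA libraries were all above the controls, and it missed the threshold at a log2 difference of 0.24 (edgeR adjusted p = 0.0563), while DESeq2 called it. Rpl5 has 91.1% of its 100-base stretches shared with other genes, so its change is uncertain. Rpl39, at the exit tunnel, did not pass (log2 difference -0.19, edgeR adjusted p = 0.199), nor did Rpl36a (-0.11, 0.758). Rpl36a averaged only 1.12 CPM over 30 libraries and had 83.6% of its 100-base stretches shared, so it is not shown to be unchanged.

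The stalk, to which the elongation factors bind, had 2 of its 3 genes lower. Rplp0, the stalk base, had 286.4, 276.1, 267 and 269.3 CPM in SBMA, against 331.6, 374.3, 317.3 and 323 CPM in controls. No SBMA library reached the lowest control, and the log2 difference was -0.29 (edgeR adjusted p = 0.00457). Rplp2 fell by nearly the same amount (log2 difference -0.29, edgeR adjusted p = 0.00997). Rplp1 averaged 213 ± 21.9 CPM in SBMA and 252 ± 34.8 CPM in controls (SD, n = 4 each), with overlap, and missed the threshold at a log2 difference of -0.24 (edgeR adjusted p = 0.0882).

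The paralogues differed among themselves. Rpl3l (chr17:24727820-24736143, plus strand, GRCm38) had 342.7, 376.9, 326.1 and 302.3 CPM in SBMA, against 593, 626.2, 542.1 and 564 CPM in controls. The highest SBMA library was far below the lowest control, and the log2 difference of -0.79 (SE 0.08, edgeR adjusted p = 3.15e-06) was the largest fall of the 77. In RPKM it averaged 205 ± 19.1 in SBMA and 354 ± 22.2 in controls (SD, n = 4 each). Its core counterpart Rpl3 had 7.408, 6.008, 5.602 and 6.995 CPM in SBMA, against 5.716, 6.833, 6.762 and 5.311 CPM in controls. Those groups overlapped, with a log2 difference of 0.08 (edgeR adjusted p = 0.726). Rpl22l1 had 11.75, 12.81, 11.24 and 14.7 CPM in SBMA, against 16.43, 15.79, 15.92 and 15.74 CPM in controls, which did not overlap (log2 difference -0.34, edgeR adjusted p = 0.0100). Its counterpart Rpl22, an RNA-binding protein that in mouse represses Rpl22l1, averaged 108 ± 5.01 CPM in SBMA and 118 ± 4.03 CPM in controls (SD, n = 4 each) and did not pass (log2 difference -0.13, edgeR adjusted p = 0.110). Rpl7l1 (log2 difference -0.09, edgeR adjusted p = 0.378) and Rps27l (-0.01, 0.932) did not pass either, and Rpl39l, at no more than 0.153 CPM in any library, had too few counts to be tested.

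**Figure D3:**
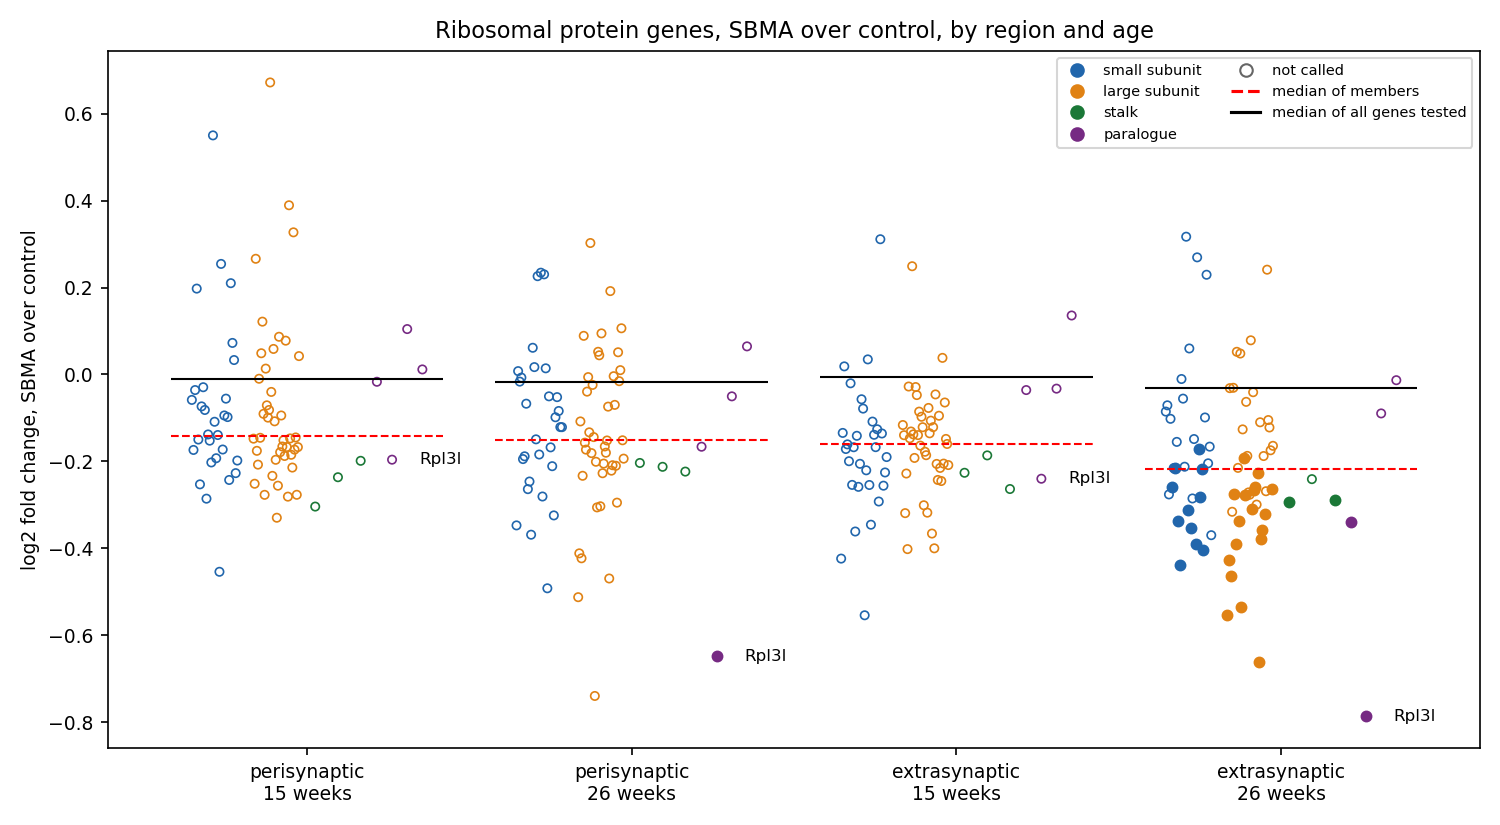
Log2 difference, SBMA minus control, of each tested ribosomal protein gene in the 4 region and age comparisons (TMM scaling), with genes that passed the edgeR threshold filled, colours for roles, the family's median as a dashed line and that of all genes as a solid line. In the extrasynaptic piece at 26 weeks 33 of 77 pass, all negative, with a median of -0.22. With total counts as the only scaling the medians were 0.10 (perisynaptic, 26 weeks), 0.03 (extrasynaptic, 15 weeks) and -0.01 (extrasynaptic, 26 weeks), below the medians of all genes in each. That of the perisynaptic piece at 15 weeks is not reported here.

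The 33 genes lay on 16 chromosomes. Their counts were higher than those of the other 49, with a median total of 34853 against 4152, and a smaller share of their sequence was found elsewhere, with a median of 34.2% against 56.5%. Of the genes with under 25% shared sequence 14 of 24 fell (median log2 difference -0.26). Of those with 60% or more 4 of 24 fell (-0.13), a share near the 16.1% of all genes called lower. Among these 4 were Rpl10 (91.6% shared), Rpl15 (73.4%) and Rps28 (66.9%), whose changes are uncertain for that reason. Of the 12 tested genes with the pyrimidine tract at an annotated start 6 fell (median -0.27), and of the 46 without it there 19 fell (median -0.20). The 46 include Rpl4, whose run of pyrimidines ends before the annotated start, so they are not shown to lack TOP tracts. Calls were thus more frequent among deeply counted genes, and a gene that missed the threshold is not shown to be unchanged.

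At 15 weeks the extrasynaptic piece had the same sign for most members, and none passed, Rpl3l included (log2 difference -0.24). The comparison called 1.22% of 15526 genes. By edgeR, 0 of 77 ribosomal protein genes were called, and DESeq2 called 4 as lower, among them Rpl4, Rpl30 and Rps28. At an unadjusted p under 0.05 by edgeR there were 23 of the 77, and 2237 of all 15526 genes. The median log2 difference was -0.16 over the family and -0.01 over all genes, with 71 of 77 negative, whereas with total counts as the only scaling it turned to 0.03 over the family and 0.19 over all genes. In 28 of 77 all SBMA libraries were below all controls, against 7.7% of all genes. Rpl4 had 432.1, 408.0, 436.6 and 433.9 CPM in SBMA, against 486.0, 488.1 and 512.6 CPM in controls. The groups did not overlap, at a log2 difference of -0.22 (SE 0.06, edgeR adjusted p = 0.101). The 33 genes called at 26 weeks were all negative at 15 weeks, with a median of -0.16, in animals other than those that defined them, and the other 44 had a median of -0.14 with 38 negative.

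In the perisynaptic piece at 26 weeks 1 of 78 ribosomal protein genes fell in SBMA, where 14% of 15735 genes were called. That gene was Rpl3l, with 371.7, 412.7, 347 and 313.9 CPM in SBMA, against 552.9, 693.1, 504.1 and 531.7 CPM in controls. The groups were again far apart, at a log2 difference of -0.65 (SE 0.12, edgeR adjusted p = 0.00157). The family's median was -0.15, and 2 of 78 genes had every SBMA library below every control, against 8.63% of all genes. That median changed sign with a single library. Without control replicate 2, which had the highest family level of all, it was 0.05, with 27 of 76 negative. Leaving that library out also unbalanced the groups, since replicates 1 and 2 were the higher ones in both genotypes. The family's median log2 offset from each gene's mean was 0.23, 0.33, -0.11 and -0.12 in SBMA libraries, against 0.18, 0.71, -0.01 and -0.01 in controls. With total counts as the only scaling the median log2 difference was also positive, at 0.10 against 0.24 over all genes. Rpl10 (log2 difference -0.51, edgeR adjusted p = 0.108) and Rps28 (-0.49, 0.132) came closest to the threshold among the others.

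In the perisynaptic piece at 15 weeks 0.21% of 15735 genes were called and 0 of 78 ribosomal protein genes, both by edgeR and by DESeq2. At an unadjusted p under 0.05 there were 2 of the 78, and 1118 of all genes. The median log2 difference was -0.14 with 59 negative. As a raw share of counts the family took 0.497% ± 0.0450 in SBMA and 0.528% ± 0.0233 in controls (SD, n = 4 and 3), with overlap. In 11 of 78 all SBMA libraries were below all controls, against 5.26% of all genes. Rpl3l had 471.4, 479.8, 442.9 and 446.4 CPM in SBMA, against 539.5, 480.6 and 556.1 CPM in controls. One control stood within 1 CPM of the highest SBMA library, and the log2 difference was -0.20 (edgeR adjusted p = 0.843).

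**Figure D4:**
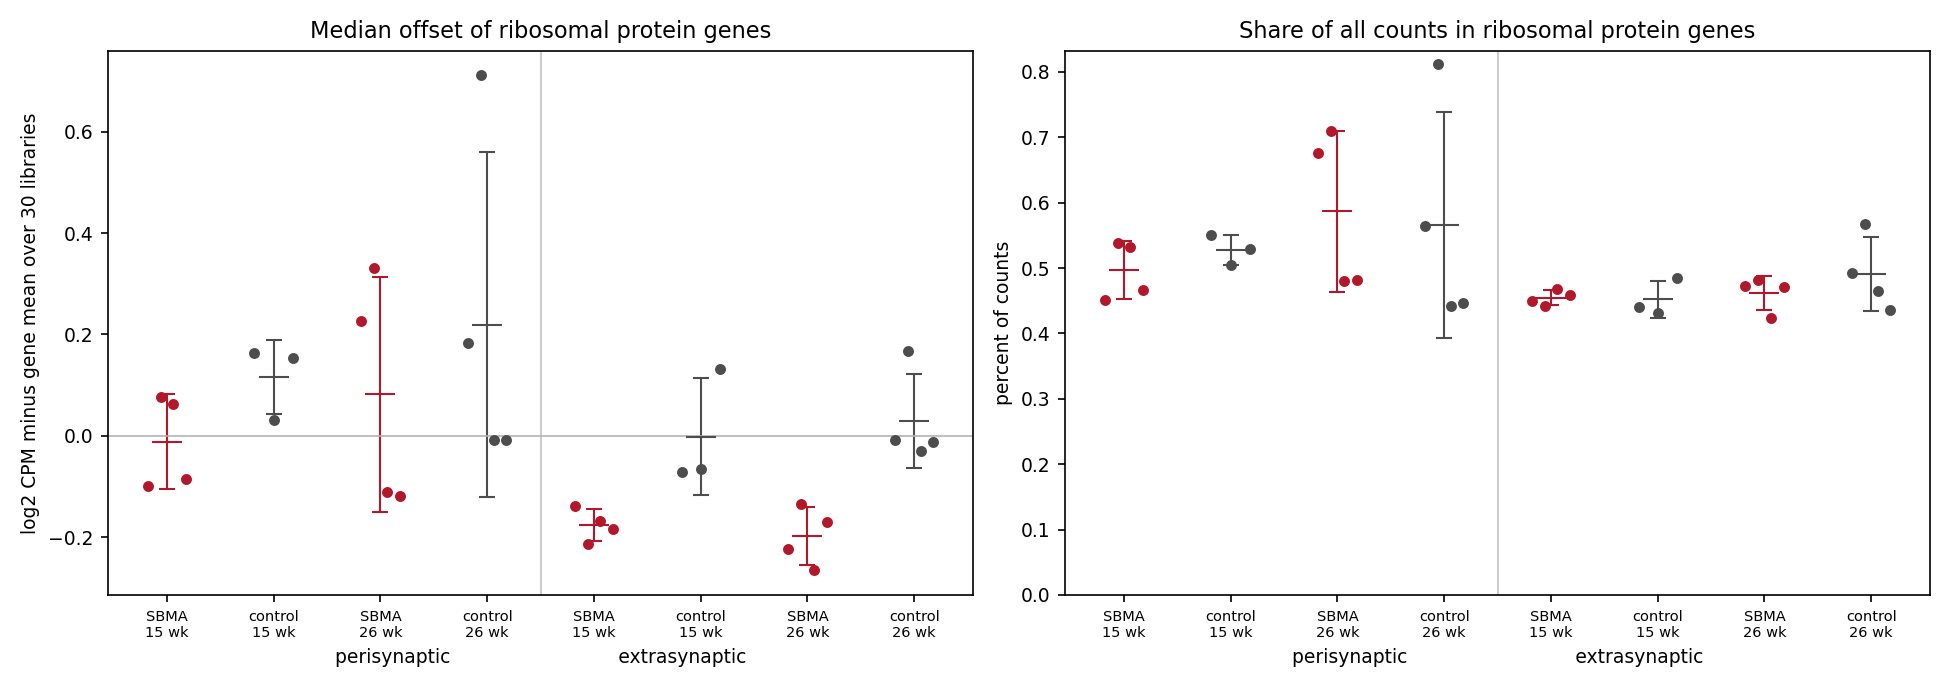
Left, median log2 offset of the ribosomal protein genes in each library, relative to each gene's mean over 30 libraries (TMM-scaled). Right, their percent of all counts, on which the genotypes overlap. Points are libraries and bars are mean and SD, with SBMA left of control. In the extrasynaptic piece SBMA libraries sit at -0.27 to -0.14 at 26 weeks, below all controls at -0.03 to 0.17. Control replicate 2 of the perisynaptic piece at 26 weeks stands highest, at 0.71.

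Library by library, the family's median offset was -0.27 to -0.14 in extrasynaptic SBMA libraries at 26 weeks, against -0.03 to 0.17 in their controls, and -0.21 to -0.14 in SBMA libraries at 15 weeks, against -0.07 to 0.13 in theirs. The groups did not overlap at either age. In the perisynaptic piece they overlapped at both ages, with -0.10 to 0.08 in SBMA libraries at 15 weeks, against 0.03 to 0.16 in controls. At 26 weeks the offset was -0.12 to 0.33 in SBMA libraries, against -0.01 to 0.71 in controls, and replicates 1 and 2 were the higher ones in both genotypes. As a raw share of all counts the family did not separate the extrasynaptic groups: it took 0.463% ± 0.0259 in SBMA libraries at 26 weeks and 0.490% ± 0.0566 in controls (SD, n = 4 each). The 10 most abundant genes took 14.6% to 17.5% of counts in those SBMA libraries, against 19.1% to 20.3% in controls, and TMM factors were 1.04 to 1.11 in SBMA and 0.874 to 0.989 in controls. Their part in the family's fall was not tested. Library names hold animal numbers in 4 runs, and at 26 weeks each run holds 2 SBMA and 2 control animals. Within the runs the extrasynaptic family median was -0.29 (lower numbers, 7 of 76 genes called) and -0.17 (higher numbers, 2 of 75). The median and the share called over all genes within each run are not reported here, so these counts are no result about the family. For Rpl3l the extrasynaptic log2 difference was -0.75 and -0.79 (edgeR adjusted p = 0.00422 and 0.00680), and the perisynaptic one -0.67 and -0.62 (edgeR adjusted p = 0.245 and 0.00397), for lower and higher numbers in that order. At 15 weeks each run held a single animal of one of the genotypes, too few for a value within it.

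Age could not be told apart from run of animal numbers, since no run held animals of both ages. Rpl3l had the clearest difference between the ages. In the extrasynaptic SBMA piece it had 342.7, 376.9, 326.1 and 302.3 CPM at 26 weeks, against 466.3, 450.5, 460.4 and 463.9 CPM at 15 weeks. The ages did not overlap, and Rpl3l fell by 0.45 on the log2 scale (SE 0.08, edgeR adjusted p = 0.00148). It was the only 1 of 77 ribosomal protein genes called in a comparison that called 12.1% of genes. In the extrasynaptic control piece the log2 difference, 26 minus 15 weeks, was 0.10 (SE 0.08, edgeR adjusted p = 0.898). The difference between these age effects, the genotype by age term, was -0.55 (SE 0.11, edgeR adjusted p = 0.0220), and Rpl3l was again the single 1 of 77 called where 1.73% of genes were. Muscle fibre markers moved with it: between the ages in extrasynaptic SBMA 9 of 12 fell and 1 rose (median log2 difference -0.49), in extrasynaptic controls 0 of 12 passed by edgeR (median -0.05), and the genotype by age term had a median of -0.36 with 2 of 12 called. Their part in the Rpl3l values was not tested. Leaving out SBMA replicate 3 at 26 weeks, SBMA replicate 1 at 15 weeks or control replicate 1 or 2 at 15 weeks ended the call of the Rpl3l term, with an edgeR adjusted p of at most 0.0589. In the perisynaptic piece the term was -0.45 (SE 0.17, edgeR adjusted p = 0.419), and it called 0 of 78 (DESeq2 0) and 0.375% of all genes. At an unadjusted p under 0.05 there were 1 of the 78, and 1303 of all genes. From lowest to highest group mean, Rpl3l RPKM was 205 ± 19.1 and 220 ± 25.4 in extrasynaptic and perisynaptic SBMA at 26 weeks, 280 ± 4.24 and 280 ± 11.1 in SBMA at 15 weeks, 320 ± 24.2 and 330 ± 28.0 in perisynaptic and extrasynaptic controls at 15 weeks, and 347 ± 51.2 and 354 ± 22.2 in those controls at 26 weeks (SD, n = 4, or 3 in controls at 15 weeks). The control ages within a region differed by less than the larger of their SDs, and the regions, which come from the same animals, are compared within animals further on.

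No other member passed between the ages. Perisynaptic SBMA at 26 against 15 weeks called 3.95% of genes and 0 of 78 ribosomal protein genes (DESeq2 called 1). At an unadjusted p under 0.05 there were 5 of the 78, and 2670 of all genes. The median log2 difference was 0.10 with 68 positive, and in perisynaptic controls it was 0.15, also with 68 positive. In perisynaptic SBMA the family's median offset at 26 weeks was 0.23 and 0.33 in replicates 1 and 2. It was -0.11 and -0.12 in replicates 3 and 4, against -0.10 to 0.08 at 15 weeks. Rps25 was the 1 that DESeq2 called, and had 9.991, 9.924, 5.336 and 5.242 CPM at 26 weeks, against 3.096, 4.865, 4.227 and 4.578 CPM at 15 weeks. All 4 values at 26 weeks were higher, but replicates 1 and 2, from the lower run of animal numbers, stood far above the other pair, and the log2 difference of 0.87 missed the threshold (SE 0.26, edgeR adjusted p = 0.0745). In controls the age comparison called 0% of genes by edgeR in either piece, and 0 of 78 perisynaptic and 0 of 77 extrasynaptic ribosomal protein genes. At an unadjusted p under 0.05 there were 6 and 2, and DESeq2 called none of them. Over all genes there were 891 perisynaptic and 1036 extrasynaptic genes at that unadjusted p, and DESeq2 called 40 and 51.

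**Figure D5:**
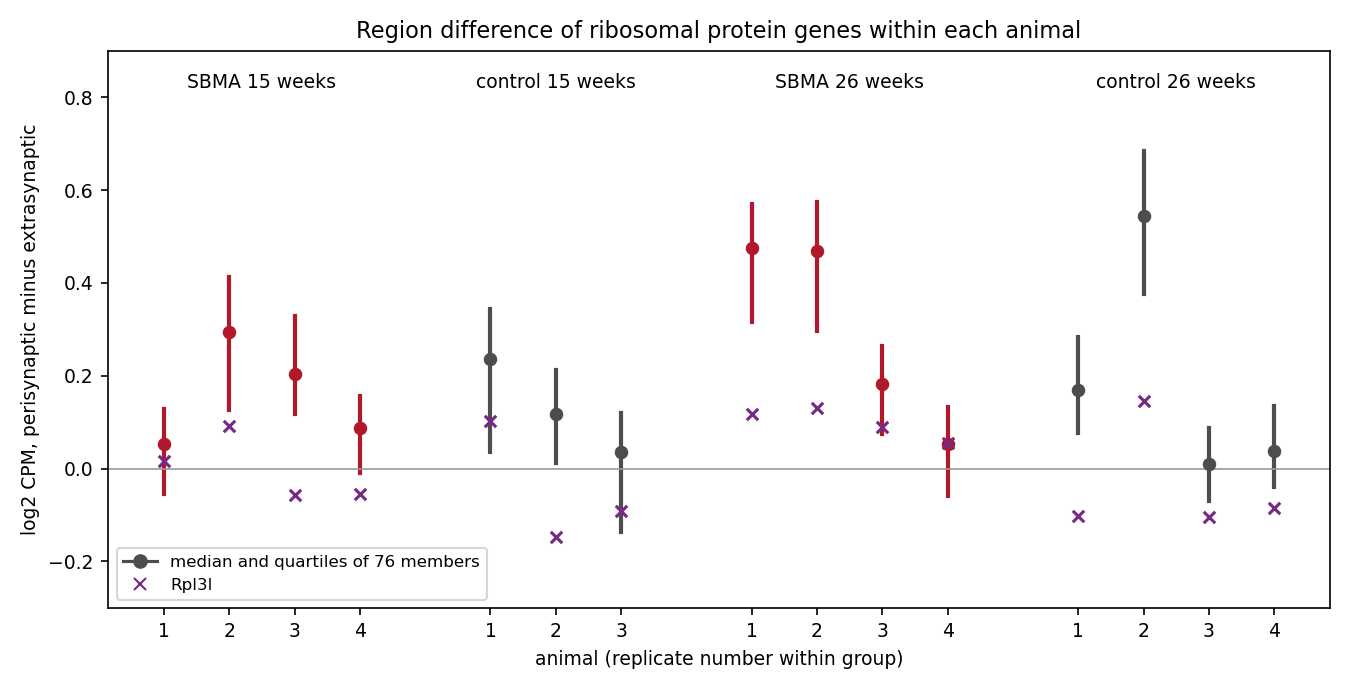
Difference between pieces within each animal: median log2 CPM over 76 ribosomal protein genes, perisynaptic minus extrasynaptic, with the quartiles as bars, and Rpl3l beside it. All 15 animals have a positive median (0.01 to 0.54), with Rpl3l between -0.15 and 0.15.

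Between the pieces of one animal, most ribosomal protein genes were somewhat higher on the perisynaptic side. The median difference over 76 genes was positive in 15 of 15 animals, but its size ran from 0.01 to 0.54. In SBMA at 26 weeks it was 0.48, 0.47, 0.18 and 0.05, with 70, 73, 66 and 48 genes higher. In controls at 26 weeks it was 0.17, 0.54, 0.01 and 0.04, with 60, 73, 40 and 48 genes higher. Replicates 1 and 2, from the lower run of animal numbers, had the larger differences in both genotypes. At 15 weeks it was 0.05, 0.29, 0.20 and 0.09 in SBMA, and 0.24, 0.12 and 0.04 in controls. Over all genes tested the fitted median was 0.003 in SBMA and -0.015 in controls at 26 weeks. At 15 weeks that median was -0.005 in SBMA and -0.004 in controls. Rpl3l was higher on the perisynaptic side in all 4 SBMA animals at 26 weeks, by 0.12, 0.13, 0.09 and 0.05 on the log2 scale, and did not pass (log2 difference 0.10, SE 0.06, edgeR adjusted p = 0.310). In controls at 26 weeks its differences were -0.10, 0.15, -0.10 and -0.09.

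Few single genes passed between pieces. In SBMA at 26 weeks Rps3a1, a small subunit protein of the platform, was the 1 of 80 called, where 2.07% of 16138 genes were. At an unadjusted p under 0.05 there were 50 of the 80, and 3847 of all 16138 genes. Rps3a1 had 31.46, 36.39, 29.62 and 28.77 CPM in the perisynaptic pieces, against 20.39, 29.18, 24.27 and 24.5 CPM in the extrasynaptic pieces of the same animals. Each animal was higher on the perisynaptic side, with a log2 difference of 0.36 (SE 0.08, edgeR adjusted p = 0.0277). That count turned on the fit, since DESeq2 called 15, all higher, and leaving out an animal gave 0 (without replicate 1 or replicate 2), 2 (Rpl14 and Rpl37, without replicate 3) or 35 (without replicate 4). Rps3a1 itself kept its call in 1 of these 4. The share of all genes called in these other fits is not reported here, so their counts are no result about the family. In SBMA at 15 weeks 0.948% of genes were called and 0 of 80 ribosomal protein genes (DESeq2 0), with a median of 0.16. At an unadjusted p under 0.05 there were 13 of the 80, and 1063 of all genes. In controls edgeR called 0 of 80 at 15 weeks (1.16% of all genes) and 0 of 80 at 26 weeks (1.18% of all genes), with medians of 0.12 and 0.20. At an unadjusted p under 0.05 there were 12 members and 1278 of all genes at 15 weeks, and 25 and 2269 at 26 weeks. The test of whether the region difference depended on genotype called 0 of 80 at 15 weeks (0% of all genes by edgeR and 5 genes by DESeq2). At 26 weeks it called 0 of 80 (0.0124% of all genes), and DESeq2 called no ribosomal protein gene at either age. At an unadjusted p under 0.05 there were 3 members and 421 of all genes at 15 weeks, and 1 and 490 at 26 weeks. Beside these values, 7 of 8 Schwann cell markers and 6 of 8 junction markers were higher in the perisynaptic pieces of SBMA mice at 26 weeks, with median log2 differences of 2.94 and 1.91, and 0 of 12 macrophage markers passed (median 0.21). Their part in the ribosomal protein difference was not tested.

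Lists of other translation genes were read beside the 32.2% of all genes called in the extrasynaptic piece at 26 weeks, 16.1% as higher and 16.1% as lower. Shares near these are no result about a list. Of 5 tested ribosomal and ribosome-bound proteins of another list, which also holds the family member Rpl41, 2 fell, among them Rack1, a scaffold on the small subunit, which averaged 281 ± 7.52 CPM in SBMA and 362 ± 19.9 CPM in controls (SD, n = 4 each; log2 difference -0.37, edgeR adjusted p = 0.000181). Of 10 elongation factors 2 fell, Eef1d at a log2 difference of -0.31 and Eef1a1 at -0.30, and 1 rose, Naca, which binds nascent chains, at 0.55. Of 29 initiation factor genes 6 rose and 3 fell, with a median of 0.03, led by the subunits Eif3c at 0.52, Eif3l at 0.44 and Eif3b at 0.39. Of 37 ribosome biogenesis genes 8 rose and 2 fell, with a median of -0.05, among them Bop1 at 0.59, Ncl (nucleolin) at 0.48 and Nle1 at -1.07. Of 14 RNA polymerase I genes 1 rose and 2 fell, with a median of -0.08. Of 22 genes of TOP mRNA and mTORC1 control 4 rose, including the mTOR inhibitor Deptor at 0.74, and 2 fell, including Ddit4l at -0.87, with a median of 0.11.

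Cell type markers also moved in that comparison, to be read beside the 32.2% of all genes called and the 16.1% called lower. Of 12 muscle fibre markers 9 fell and 1 rose, among the falls myoglobin (Mb) at a log2 difference of -2.32, and their summed level was 68663 to 77423 CPM in SBMA, against 136178 to 149406 CPM in controls. Of 12 macrophage markers 9 fell, among them the complement genes C1qa, C1qb and C1qc, with a summed level of 214 to 245 CPM in SBMA, against 305 to 425 CPM in controls. Of 10 endothelial markers 5 fell, with a summed level of 570 to 643 CPM in SBMA, against 706 to 949 CPM in controls. Of 10 fibroadipogenic progenitor markers 5 fell, with overlapping sums of 1433 to 2001 CPM in SBMA and 1668 to 2332 CPM in controls. Of 6 mesothelial markers 4 fell, with a summed level of 101 to 283 CPM in SBMA, against 300 to 340 CPM in controls. Of 6 satellite cell markers 4 rose, with a summed level of 55.0 to 75.1 CPM in SBMA, against 43.3 to 51.6 CPM in controls. Of 8 junction markers 4 rose and 1 fell, with a summed level of 216 to 259 CPM in SBMA, against 59.5 to 104 CPM in controls. Of 7 tested blood cell markers 1 fell, and by edgeR none of the 7 tested Schwann cell or 7 adipocyte markers passed. The part of any of these in the ribosomal protein values, or in that of Rpl3l, which muscle fibres express, was not tested.

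The genes most like Rpl3l over the 8 group means, by Pearson r of log2 CPM, were Gm49477 (0.998), the mitochondrial isocitrate dehydrogenase subunit Idh3b (0.996), Trpv4 (0.995), Unc13c (0.995) and 1700120C14Rik (0.995). The most opposite were Dnajc18 (-0.999), Lpin3 (-0.998), Parp4 (-0.997), Maoa (-0.996) and Arhgap24 (-0.996). These were picked from all tested genes for their likeness over 8 points that share libraries, so the r values are a description. Their log2 differences, SBMA minus control, in the extrasynaptic piece at 26 weeks ranged in size around that of Rpl3l, with Idh3b at -0.57 (edgeR adjusted p = 8.84e-06), Unc13c at -2.79 (edgeR adjusted p = 7.09e-06) and Trpv4 at -0.46, which did not pass (edgeR adjusted p = 0.0778).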

How the data were processed

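RNA had been extracted with a miRNeasy kit and libraries made with a KAPA stranded mRNA kit, per the labels' protocols. The authors deposited raw counts per gene, made with featureCounts on mm10 per the submitters' processing notes. Not given in the sources used here are the aligner, the strand setting and the treatment of multiply matching reads. Gene identifiers were joined without version to GENCODE vM21 (GRCm38): 33064 matched, and the 12 others held 0.00171% of counts. Shared sequence was computed within that annotation's transcripts only.

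Counts were fitted with edgeR 4.0.16 (R 4.3.3, limma 3.58.1) by quasi-likelihood after TMM scaling and filterByExpr (minimum count 10, minimum total 15). A fit per region held 15 libraries and 4 group means (15735 perisynaptic, 15526 extrasynaptic genes). A joint fit of 30 libraries with a term per animal (16138 genes, 11 residual degrees of freedom) gave the region comparisons. Genes were called at an adjusted p (Benjamini-Hochberg, across every gene of the fit) below 0.05. Not tested were Rpl24, Rpl39l, Rps16 and Rps29 in the perisynaptic fit, Rpl23a, Rpl24, Rpl38, Rpl39l and Rps16 in the extrasynaptic fit, and Rpl24 and Rpl39l in the joint fit. The fits were also run on simulated counts without animal or run effects, so that check does not cover such effects. DESeq2 1.42.0 and other settings served as alternatives. Levels are CPM on TMM-scaled sizes, or RPKM over all exons.

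The family and gene lists were chosen with earlier results of these data known. Named genes were the paralogue pairs, stalk genes, Rpsa, Rps6 and Rps27a, the up to 5 largest called changes each way above 2 CPM, all called genes where 5 or fewer were called, the 3 highest and lowest per length, up to 3 called genes per list, and the 5 genes most like and most opposite to Rpl3l. Other members, among them Rps28, Rps3, Rpl4, Rpl5, Rpl15 and Rps25, were named after their values were seen. Values of some single genes are not reported here. Replicates are separate animals.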

Additional observations from a re-analysis of the deposited data

Results flagged for a closer look

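Among 180 gene-by-group and family-by-group sets of 4 libraries looked at, 12 had a library far from the other 3 by Dixon's test, and chance gives about 1 in 20. In perisynaptic controls at 26 weeks, replicate 2 stood high for Rpl36 (7.43 CPM against 2.71 to 3.41), Rps19 (77.6 CPM against 37.8 to 42.1) and Rpsa (5.40 CPM against 2.87 to 3.29). The extrasynaptic piece of the same animal stood high for the family's median log2 offset (0.17 against -0.03 to -0.01). Also in extrasynaptic controls at 26 weeks, replicate 1 alone had any Rpl39l, at 0.0476 CPM.

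In extrasynaptic SBMA libraries at 26 weeks, replicate 1 stood low for Rpl21 (1.02 CPM, the others at 1.42 or above), replicate 3 for the family's share of counts (0.424% against 0.472% to 0.481%), and replicate 4 high for Rpl7l1 (43.9 CPM against 41.5 to 41.8). In extrasynaptic SBMA libraries at 15 weeks, replicate 2 stood low for Rpl4 (408 CPM against 432 to 437), replicate 3 low for Rpl3 (5.68 CPM against 5.97 to 5.99), and replicate 4 high for Rplp1 (226 CPM against 203 to 205) and low for Rps4x (53.2 CPM against 58.3 to 58.7).

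The genotype effect on Rpl3l differed between ages in the extrasynaptic piece, by a genotype by age term of -0.547 on the log2 scale (edgeR adjusted p = 0.0220). The call held in 11 of 15 fits that left out a library. Age could not be told apart from run of animal numbers.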

How the results depend on the processing

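For SBMA against control in the extrasynaptic piece at 26 weeks, the count of 33 ribosomal protein genes became 34 with DESeq2 (32 of the same genes, and Rpl5 as higher), 30 with RLE factors, 26 with a replicate block, 36 with a block by run of animal numbers, 20 with only the 2 groups fitted, 17 without a filter on low counts, and 2 with total-count scaling. It was 14 among genes with under 25% shared sequence, an alternative chosen after seeing the data, 7 in the lower run and 2 in the higher run alone, and 21 to 35 leaving out a library, with 21 without SBMA replicate 1 or 3 or control replicate 2. Rpl23 (0.0205) and Rps3 (0.0409) turned positive under total-count scaling. Rpl3l passed in 17 of 17 alternatives there (-0.84 to -0.58) and in 16 of 17 in the perisynaptic piece (-0.72 to -0.40), missing it in the lower run alone. The perisynaptic count of 1 at 26 weeks became 2 with a replicate block, 3 with a block by run, 0 in the lower run and 2 in the higher run. Same-numbered animals did not pair the genotypes by the rule that every pair's correlation of deviations exceed 0.1: 0 of 3 pairs did at 15 weeks, and at 26 weeks 3 of 4 did in each region, with means of 0.288 (perisynaptic, lowest 0.0650) and 0.128 (extrasynaptic, lowest 0.00761) against -0.0967 and -0.0428 for other pairs, and the replicate block moved no other count. At 15 weeks the extrasynaptic count of 0 became 4 with DESeq2. For 26 against 15 weeks in perisynaptic SBMA, 0 became 1 with DESeq2, total-count scaling, no filter or only the 2 groups fitted, and 0 to 1 leaving out a library; extrasynaptic SBMA gave 1 to 2. The extrasynaptic genotype by age count was 0 to 1. Between pieces in SBMA at 26 weeks, 1 became 15 with DESeq2, 2 with RLE factors, 7 with total-count scaling, 37 with no filter, 0 without the animal term, 0 among genes with under 25% shared sequence, and 0 to 35 leaving out an animal. With no filter, controls gave 1 at 15 and 7 at 26 weeks. The cause of these shifts was not tested. Shares of all genes called under the alternatives are not reported here, so these counts show dependence on the setting only. Genes under a few CPM are limited by depth, and unrecorded treatment of multiply matching reads limits every highly shared gene.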
